A study of Mus musculus with 12 samples.

Results

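Transcripts of 10 genes that set, copy, shield or erase DNA methylation in the oocyte were followed through meiotic maturation with and without the RNA demethylase ALKBH5. They were chosen by symbol, as the rows of the count table whose gene identifier maps to Dnmt1, Dnmt3a, Dnmt3b, Dnmt3l, Uhrf1, Dppa3, Tet3, Zfp57, Trim28 or Kdm1b. All 10 of 10 symbols matched 1 identifier each, among 56691 genes in the table. All 10 had counts in each of the 12 libraries and passed the filter on low counts in every comparison. RNA came from oocytes of WT mice and of Alkbh5-/- mice, labelled KO, which carry a germline deletion of exon 1 with the start codon, made with CRISPR-Cas9. Both genotypes were of C57BL/6 background, and oocytes came from juvenile females primed with PMSG. Full-grown oocytes at the germinal vesicle (GV) stage were cultured in M16 medium, and pools were taken by time in culture as GV, germinal vesicle breakdown (GVBD) and metaphase II (MII) samples. Each of the 6 groups had 2 libraries. The study describes KO oocytes as mostly failing to mature on this schedule, so that KO GVBD and KO MII name a culture time. Genotype and meiotic stage cannot be told apart there. ERCC spike-in RNA, synthetic and in a fixed quantity, went into every tube ahead of reverse transcription.

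DNA methylation of the mouse egg is laid down while the oocyte grows. DNMT3A adds it de novo together with DNMT3L, a cofactor with no catalytic activity of its own, and KDM1B, a histone H3 lysine demethylase, clears active marks so that imprinted regions can be methylated. DNMT1 copies methylation at replication, and UHRF1 brings it to hemimethylated sites. DPPA3, also named STELLA, is a maternal protein that restrains UHRF1 in the oocyte and protects the maternal genome from TET3, the dioxygenase that oxidises methylcytosine of the paternal genome after fertilisation. ZFP57 and its corepressor TRIM28 keep imprints methylated when most other methylation is erased. Oocytes store many such transcripts for the embryo.

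Total counts per library, in units of 1e6, lay between 28.6 and 40.2, of which 221927 to 838409 counts fell on the ERCC sequences. The targeted gene, Alkbh5, had 5355 to 10181 counts in WT and 54 to 143 in KO libraries. A list of 12 oocyte markers was present throughout, at 10649 to 18931 CPM (counts per 1e6 endogenous counts) in sum. Of 14 cumulus and granulosa cell markers, 1 to 5 were at 0 in a library and 2 that define granulosa cells, Amh and Foxl2, had at most 5 counts. Others were present in every library, with 577 to 2225 counts of Cyp19a1, 292 to 480 of Nr5a2, 73 to 263 of Kitl and 17 to 221 of Fshr. The summed list was higher in KO without overlap at each stage, with 42.4 and 48 CPM in WT and 51.9 and 55.9 in KO for GV, 43.7 and 51.6 against 75.9 and 55.2 for GVBD, and 55.5 and 48.5 against 61.7 and 88.5 for MII. These sums lean on 1 gene. Cyp19a1 alone gave 22.1 and 20.4 CPM in WT GV and 29.2 and 34.8 in KO GV. It gave 23.2 and 27.1 against 47.8 and 30 for GVBD, and 36.8 and 32.1 against 35.7 and 72.2 for MII. Of the tested genes on the list, 3 of 10 at GV, 6 of 11 at GVBD and 4 of 8 at MII had a log2 fold change above the median of all genes. In KO against WT edgeR called 1 of the 11 genes of this list tested at GVBD, Fshr, 10.4-fold higher (adjusted p = 0.00897), where 2.54% of all genes were called. Fshr had 17 and 32 counts in WT GVBD and 221 and 157 in KO GVBD, against 103 and 71 in WT GV. At GV 0 of 10 were called, at MII 0 of 8 and over all stages 0 of 11, where 0.0977, 0.803 and 1.26% of all genes were. In these 3 comparisons 1, 0 and 2 had an unadjusted p under 0.05 and DESeq2 called 0, 0 and 1. Of all genes, 17.9, 7.32 and 18.8% had such a p, and DESeq2 called 3.42, 1.97 and 6.16%. The part of these markers in the genotype differences below was not tested. Markers of blood, heart, liver, skin, endothelial and stromal cells differed widely between libraries, from 86.8 to 3562 CPM in sum over 13 genes, with 0 to 6 of them at 0. Pecam1, the endothelial marker, made up 71.1 of the lowest sum, and globins carried most of this signal in WT GV replicate 2, both WT GVBD, both KO GV and KO MII replicate 1 libraries. The study describes the 2 libraries of a group as biological replicates, and the labels do not say whether they came from separate animals.

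The members ranged from a transcript at the top of the oocyte's RNA to one with 86 to 294 counts per library. Levels of different genes were compared per length, as counts per kilobase of merged exon per 1e6 endogenous counts (mean ± SD, n = 2). In WT GV oocytes Dppa3 stood at 13514 ± 1831, the highest level per length of all genes in that group. Dnmt1 followed at 144.7 ± 20.7, and then Zfp57 at 46.4 ± 6.17 and Uhrf1 at 34.8 ± 11.4, whose libraries overlapped. Below them Dnmt3l reached 23 ± 0.0511, Kdm1b 13.6 ± 0.0201, Trim28 10.3 ± 0.241 and Tet3 6.25 ± 0.496, each without overlap with its neighbours. The catalytic de novo enzymes came last, with 1.61 ± 0.451 for Dnmt3a and 0.552 ± 0.0597 for Dnmt3b, and their libraries did not overlap either. The cofactor DNMT3L was thus represented by far more transcript per length than the enzymes it assists. The merged exons measure 2988 bases for Dnmt3l, 16642 for Dnmt3a and 5106 for Dnmt3b, over all annotated transcripts. In CPM, without division by length, WT GV oocytes had 68.8 ± 0.153 of Dnmt3l, 26.8 ± 7.51 of Dnmt3a and 2.82 ± 0.305 of Dnmt3b. The gap to Dnmt3a was thus smaller in CPM and depends on the length used.

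Dppa3 and Dnmt1 held the first and the second place in all 6 groups, and Dnmt3a and Dnmt3b the last 2. By raw counts Dppa3 ranked between 1 and 5 among all genes in every library, and it alone took 0.726 to 1.56% of the endogenous counts. It supplied 77.3 to 92.8% of the summed counts of the 10 members, so that sums over the members describe Dppa3 rather than the pathway. The order in the middle differed between groups. In KO MII oocytes Dnmt3l was the third, at 84.6 ± 2.45, and it overlapped neither Dnmt1 above it nor Zfp57 below it. In WT MII oocytes it was the sixth, at 20.7 ± 0.889.

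**Figure D1:**
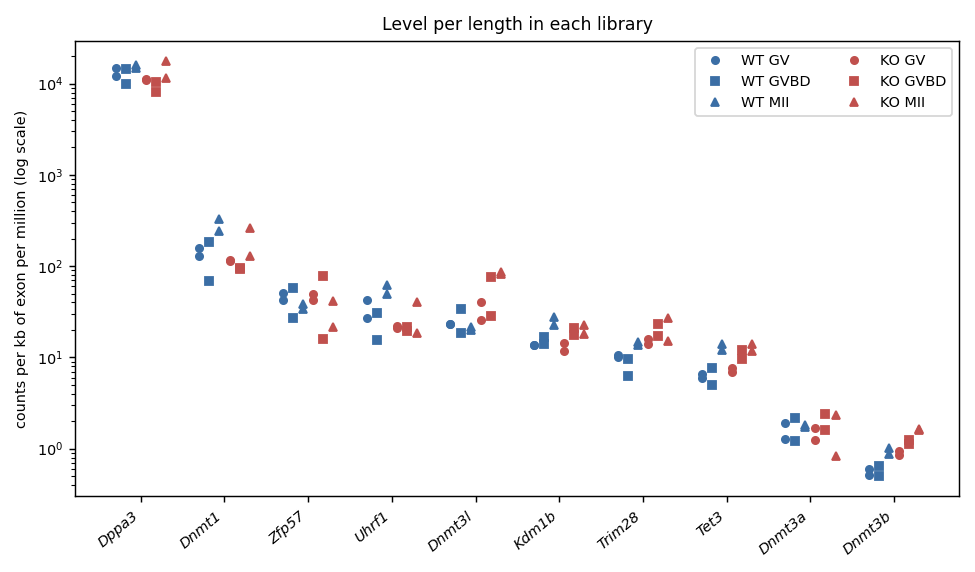
Level of each gene in each library, as counts per kilobase of merged exon per 1e6 endogenous counts on a log scale. Genes are ordered by their WT GV mean, with 1 point per library; Dppa3 lies between 8137 and 17519 and Dnmt3b between 0.507 and 1.65, and the Dnmt3l points of KO MII lie at 82.9 and 86.3 and those of WT MII at 21.3 and 20.1.

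Several features of the gene models bear on these counts. Dnmt1 (chromosome 9, 20907209 to 20959888, minus strand, GRCm38) is counted as a whole, so that the transcript from the oocyte-specific first exon and the somatic one are not separated. Dnmt3l (chromosome 10, 78041947 to 78063622, plus strand) overlaps Aire on the opposite strand, which had 11 to 118 counts per library. Dnmt3a (chromosome 12, 3806007 to 3914443, plus strand) overlaps the antisense gene Dnmt3aos, with 4 to 73 counts, and Dnmt3b (chromosome 2, 153649450 to 153687730, plus strand) overlaps Dnmt3bos, with 0 to 8. Trim28 (chromosome 7, 12999114 to 13031035, plus strand) overlaps Zbtb45, with 34 to 260 counts. Kdm1b (chromosome 13, 47043499 to 47085279, plus strand) overlaps Dek, with 2137 to 6125 counts, and Tpmt, with 717 to 6087, in libraries where Kdm1b had 2112 to 5616. Whether the counting used strand is not given in the sources used here, and reads of opposite genes cannot be told apart without it. Dppa3 (chromosome 6, 122626410 to 122630272, plus strand) has a processed copy, Dppa3-ps, with 495 to 1194 counts, so a small part of its reads may be placed there. Uhrf1 (chromosome 17, 56303321 to 56323486) and Zfp57 (chromosome 17, 37001163 to 37010635), both on the plus strand, overlap no other annotated gene. Tet3 (chromosome 6, 83362373 to 83459084, minus strand) overlaps a micro RNA gene and other non-coding genes.

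Reverse transcription started from poly(A) tails, and maturing oocytes lengthen or shorten the tails of stored transcripts, so the ends of the transcripts are shown. The last 50 bases of 1 annotated protein-coding transcript per gene held a poly(A) signal, AATAAA or ATTAAA, in 8 of the 10 members, against 74.5% of 20996 protein-coding genes. The 2 without it were Dnmt3l and Kdm1b. In Dnmt1, Dnmt3a and Tet3, 1 of 2 letter strings that match a cytoplasmic polyadenylation element, TTTTAT or TTTTAAT, stood within 100 bases before that signal, against 13.2% of all genes searched. Both searches used the transcript strand, and the 2 kinds of match may share bases, as they do in Tet3. The windows of these 3 genes start at or include the element, and those of Dppa3 and Zfp57, the most abundant transcript and the one with the lowest MII to GV ratio in WT, end with the signal. Capitals mark the matched letters, 5′ to 3′ on the transcript strand. In Dnmt1 and Dnmt3a the signal runs past the end of the window, 26 and 27 bases after the start of the element.
Dnmt1, chr9:20907227-20907256, minus strand: TTTTATatgttgtaatatttcttcaaAATA
Dnmt3a, chr12:3914389-3914418, plus strand: TTTTATtttcgctataaatagagcttcAAT
Tet3, chr6:83362389-83362418, minus strand: attgtgggtgTTTTAATAAAttttatattt
Dppa3, chr6:122630230-122630259, plus strand: acgttctaatttccagaaatttgtAATAAA
Zfp57, chr17:37010563-37010592, plus strand: ccaccccttacccccaccccacaaAATAAA
These are matches of letters in GRCm38, and tail length was not measured in these libraries.

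Below, a count of each gene is scaled by the ERCC total of its library relative to the mean ERCC total, which is called an ERCC-scaled count. It follows the amount of RNA per tube, and fewer oocytes in a tube cannot be told apart from less RNA per oocyte. A gene was called different when its adjusted p-value by the quasi-likelihood test of edgeR was under 0.05 and its change at least 2-fold.

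Among the members that act in de novo methylation, Dnmt3l, which encodes the cofactor, had the largest log2 fold change between genotypes at GVBD, at MII and over all stages. At GV that of Dnmt3b, given below, was larger. The WT libraries had ERCC-scaled Dnmt3l counts of 2910 and 2753 for GV, 2516 and 3114 for GVBD, 1886 and 1139 for MII. The KO libraries had 4015 and 5449 for GV, 10984 and 3370 for GVBD, 8791 and 5698 for MII. By ERCC scaling the lowest KO library thus lay above the highest WT library, across stages as well as within each. In CPM the genotypes overlapped within GVBD, at 55.4 and 102.4 in WT and 84.7 and 224.7 in KO, and hence across stages, but not within GV or MII. KO GVBD replicate 1 was far above its partner. KO differed from WT by a log2 fold change of 0.74 ± 0.21 (SE) for GV, 1.35 ± 0.57 for GVBD and 2.26 ± 0.80 for MII, with adjusted p-values of 0.186, 0.255 and 0.209 by edgeR. Across stages, in a fit with a stage term, it was 1.45 ± 0.34, a 2.73-fold difference with an unadjusted p of 0.000655 and an adjusted p of 0.0507. This lies just outside the threshold. The log2 fold change over all stages was 1.63 without KO GVBD replicate 2 and 1.45 without KO MII replicate 2. Without KO GVBD replicate 1, the highest library, it was 1.2. The GVBD log2 fold change fell to 0.26 without that library. DESeq2 gave an adjusted p of 0.000823 over all stages and 0.0206 at MII, both past the threshold. Across 17 alternative settings the adjusted p over all stages lay between 0.000222 and 0.191, and it was under 0.05 in 4 of them.

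Dnmt3b, which encodes another de novo enzyme, was low but showed the same separation of KO from WT libraries by ERCC scaling. Its ERCC-scaled counts in WT were 110.3 and 121.3 for GV, 151.5 and 78.8 for GVBD, 152.3 and 85.3 for MII. KO libraries gave 249.4 and 196.5 for GV, 307.5 and 228 for GVBD, 294.2 and 186.2 for MII. By ERCC scaling every KO library again exceeded every WT library, on raw counts of 86 to 191 in WT and 137 to 294 in KO. In CPM this held within each stage but not across stages, since WT MII, at 5.15 and 4.49, overlapped KO GV, at 4.83 and 4.37. The log2 fold change over all stages was 1.06 ± 0.31 with an adjusted p of 0.102, and single stages gave 0.94 ± 0.39 at GV, 1.22 ± 0.61 at GVBD and 1.02 ± 0.97 at MII. With a replicate block it passed the threshold over all stages (log2 fold change 1.08, adjusted p = 0.0467). Over the 17 alternatives the adjusted p by edgeR or DESeq2 lay between 0.013 and 0.269 and was under 0.05 in 4.

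Dnmt3a, the main de novo enzyme of the oocyte, showed no such separation. Its ERCC-scaled counts ranged from 574.9 to 1641 in WT and from 308 to 1580 in KO libraries, with overlap at every stage. The log2 fold change over all stages was 0.24 ± 0.35 (adjusted p = 0.756), and it was −0.06 with TMM scaling. Kdm1b, whose product prepares imprinted regions for methylation, likewise spanned 2355 to 4479 in WT and 2170 to 5634 in KO. Its log2 fold change over all stages was 0.24 ± 0.26 (adjusted p = 0.653), or −0.03 with TMM scaling. The 2 KO GVBD libraries, at 5634 and 3896, lay above both WT GVBD libraries, at 3468 and 2788, and the other stages overlapped.

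**Figure D2:**
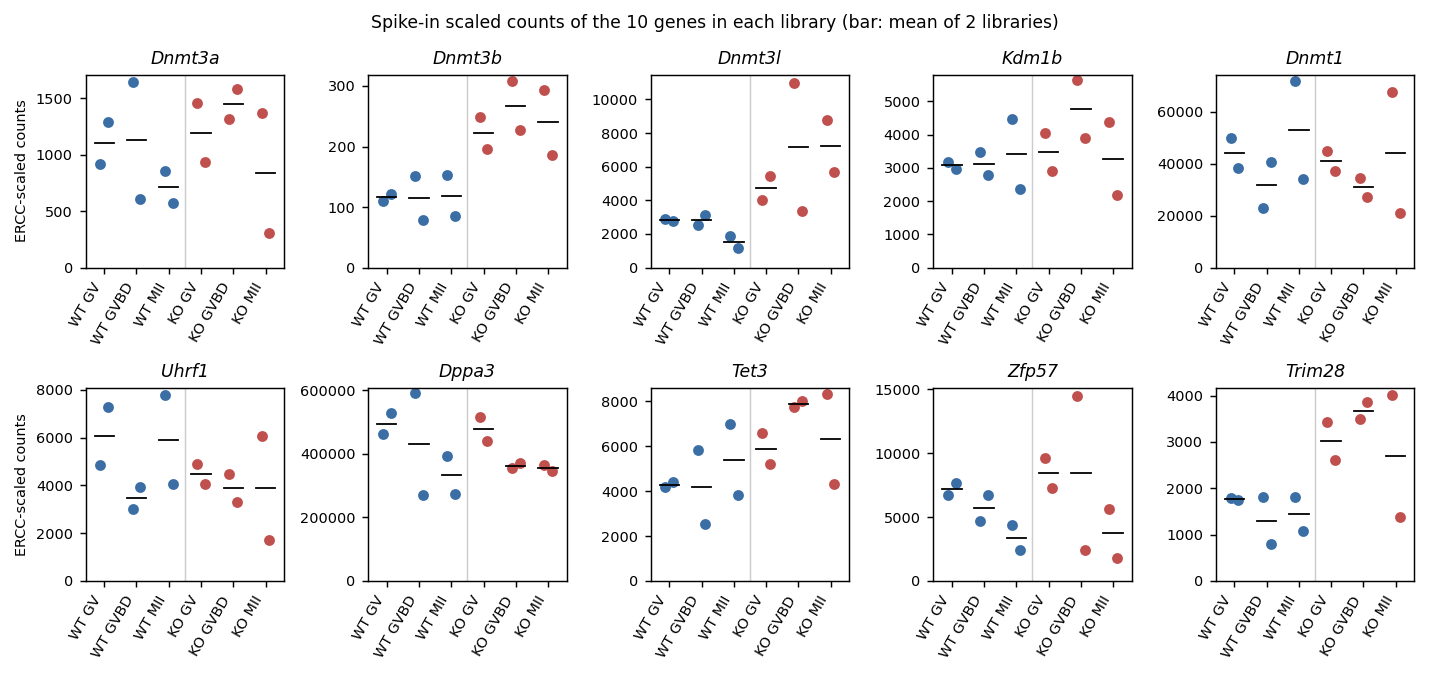
ERCC-scaled counts (vertical axes from 0) of the 10 genes in each of the 12 libraries, WT in blue and KO in red, with a bar at the mean of each group of 2. On this scale all 6 KO points lie above all 6 WT points for Dnmt3b and Dnmt3l, and the 2 KO GVBD points of Zfp57 lie at 14480 and 2415.

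The maintenance pair differed little between genotypes relative to its spread. In WT, Dnmt1 had 49837 and 38354 ERCC-scaled counts for GV, 23064 and 40821 for GVBD, 71842 and 33960 for MII. KO libraries held 44763 and 37339 for GV, 34390 and 27355 for GVBD, 67779 and 20905 for MII. The genotypes overlapped at each stage, and at MII replicate 1 was above replicate 2 in both. Over all stages the log2 fold change of Dnmt1 was −0.14 ± 0.30 (adjusted p = 0.844). Uhrf1 ranged from 3013 to 7787 in WT and from 1717 to 6056 in KO, again with overlap at every stage. Its log2 fold change was −0.44 ± 0.24 at GV, 0.16 ± 0.51 at GVBD and −0.61 ± 0.76 at MII, of which the GVBD value was −0.21 with TMM scaling. The adjusted p over all stages was 0.645.

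Dppa3, the protector of the maternal genome, showed no difference between genotypes beyond its spread. WT libraries gave ERCC-scaled counts of 462041 and 527925 for GV, 591871 and 270473 for GVBD, 392516 and 273890 for MII. KO libraries gave 516767 and 439392 for GV, 354719 and 369880 for GVBD, 363463 and 345183 for MII. The 2 WT GVBD libraries differed by more than any WT library differed from any KO library at GV or MII. Over all stages KO differed from WT by −0.07 ± 0.23 on the log2 scale (adjusted p = 0.896). Tet3, the oxidase that DPPA3 holds off, had 4176 and 4405 in WT GV and 6583 and 5210 in KO GV libraries, without overlap. At GVBD the values were 5835 and 2546 in WT and 7758 and 8031 in KO, again without overlap, and at MII 6982 and 3835 in WT met 8316 and 4332 in KO. The log2 fold change of Tet3 was 0.46 ± 0.19 at GV, 0.91 ± 0.53 at GVBD and 0.53 ± 0.27 over all stages (adjusted p = 0.277, 0.448 and 0.307). At MII it was 0.23 ± 0.74, or −0.04 with TMM scaling.

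Of the pair that guards imprints, Trim28 differed between genotypes more than Zfp57. In WT, Trim28 had 1792 and 1746 ERCC-scaled counts for GV, 1802 and 794.3 for GVBD, 1807 and 1083 for MII. KO libraries held 3437 and 2604 for GV, 3504 and 3853 for GVBD, 4009 and 1382 for MII. KO exceeded WT without overlap at GV and GVBD, while KO MII replicate 2 lay between the WT MII libraries. The log2 fold change was 0.77 ± 0.21 at GV, 1.5 ± 0.54 at GVBD and 0.90 ± 0.81 at MII, with adjusted p-values of 0.182, 0.164 and 1. Over all stages it was 1.06 ± 0.30 (adjusted p = 0.0973). With 1 library left out it lay between 0.86, without KO MII replicate 1, and 1.22, without KO MII replicate 2. DESeq2 placed Trim28 past the threshold at GVBD (adjusted p = 0.0499) and over all stages (adjusted p = 0.0139). The adjusted p over all stages was 0.0139 to 0.228 across the 17 alternatives and under 0.05 in 5. TRIM28 is a corepressor for many zinc finger proteins and is not restricted to the oocyte, and the summed markers of blood, heart, liver, skin, endothelial and stromal cells were 1949 to 2497 CPM in WT GVBD against 150.4 to 216.4 in KO GVBD. At GV these sums were 86.8 and 3472 in WT and 2484 and 3562 in KO. Their part in the Trim28 difference was not tested.

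Zfp57, the sequence-specific partner, had ERCC-scaled counts of 6750 and 7684 in WT GV and of 9628 and 7281 in KO GV libraries. At MII they were 4361 and 2416 in WT and 5651 and 1791 in KO. At GVBD WT gave 4677 and 6711, whereas the KO libraries gave 14480 and 2415. Replicate 1 over replicate 2 in KO GVBD was 2.58 on the log2 scale, which is 2.34 away from the median of all genes that averaged 50 counts or more, whose own median distance was 0.38. Without KO GVBD replicate 1 the GVBD log2 fold change between genotypes was −1.24, without replicate 2 it was 1.35, and with both it was 0.57 ± 0.63 (adjusted p = 0.741). The same library, KO GVBD replicate 1, was also high for Dnmt3l.

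Counted over the members, 0 of 10 were called in any genotype comparison by edgeR. Of all genes tested, 0.0977% were called at GV (0.0565% higher and 0.0411% lower in KO). At GVBD it was 2.54% (0.807% higher, 1.73% lower), for MII 0.803% (0.501% higher, 0.302% lower) and over all stages 1.26% (0.9% higher, 0.364% lower). At an unadjusted p under 0.05 there were 3 members at GV, 2 at GVBD, 1 at MII and 3 over all stages, and DESeq2 called 0, 1, 1 and 3. Of all genes tested, 17.9, 14.9, 7.32 and 18.8% had such a p, and DESeq2 called 3.42, 4.63, 1.97 and 6.16%. ERCC-scaled counts of KO lay above those of WT without overlap for 4 members at GV, 5 at GVBD and 2 at MII, where 42.2, 30.3 and 22.1% of all genes tested did so. Across all stages, all 6 KO above all 6 WT libraries, this held for 2 members and for 1.09% of genes. Within each of the 3 stages separately it held for the same 2 members, Dnmt3l and Dnmt3b, and for 5.39% of genes. No member was lower in KO without overlap at any stage or across stages, against 9.69, 17.9 and 10.3% of genes at single stages and 0.432% across them, or 1.5% at each of the 3 stages.

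KO libraries were higher by ERCC scaling for most genes, and the members should be read against that. The median log2 fold change of all genes tested was 0.36 at GV, 0.23 at GVBD, 0.30 at MII and 0.29 over all stages. The medians of the 10 members were 0.20, 0.59, 0.18 and 0.28, and 4, 7, 3 and 5 of the 10 lay above the median of all genes. Relative to that median over all stages, Dnmt3l was 1.16, Dnmt3b and Trim28 0.77 and Tet3 0.24 higher, and Dnmt1 0.42, Dppa3 0.36 and Uhrf1 0.58 lower on the log2 scale.

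**Figure D3:**
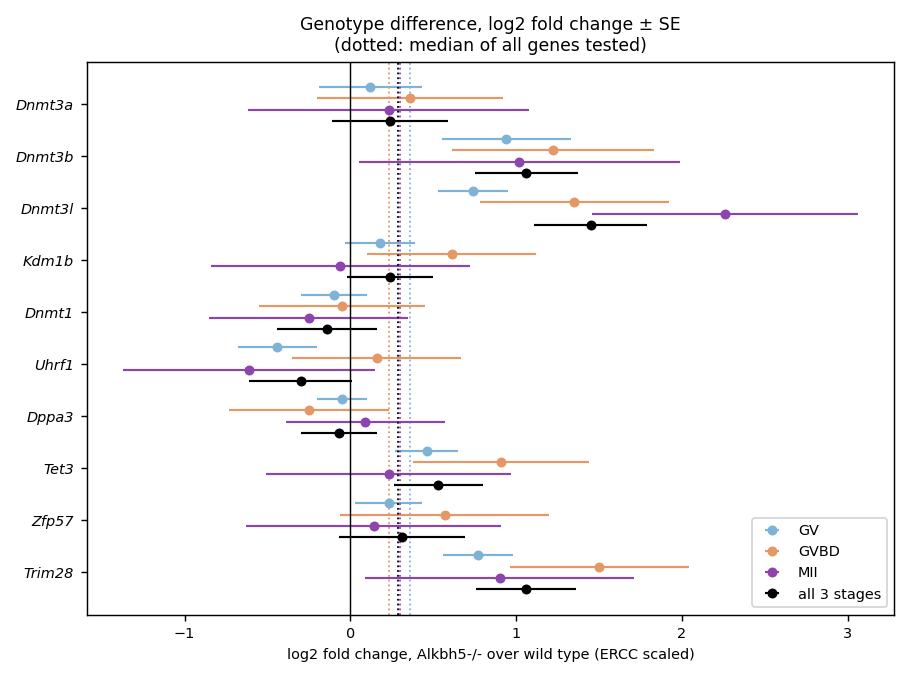
Log2 fold change of KO over WT (horizontal axis, ± SE) for each gene at each stage and over all 3 stages, from ERCC-scaled fits. Dotted lines give the median of all genes tested; Dnmt3l, Dnmt3b and Trim28 lie to the right of these lines at every stage, and no member passed the threshold.

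From GV to MII the typical transcript was lower relative to the spike-in, and 9 of the 10 members stood above it in both genotypes. The median log2 fold change of MII against GV over all genes tested was −1.06 in WT and −1.17 in KO. Zfp57, the exception, lay at that median, with −1.09 ± 0.48 in WT (adjusted p = 0.0663) and −1.18 ± 0.65 in KO (adjusted p = 0.29). The median of the members was −0.16 in WT and −0.13 in KO. No member was called in either genotype by edgeR, where 30.9% of all genes tested were called in WT (0.393% higher, 30.5% lower) and 3.28% in KO (0.00533% higher, 3.28% lower). In WT 1 member had an unadjusted p under 0.05 and DESeq2 called Zfp57 (adjusted p = 0.0201), and in KO 0 members did either. Of all genes, 39.1% in WT and 24.6% in KO had such a p, and DESeq2 called 29.3 and 16.3%.

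In WT, Tet3 was at 0.33 ± 0.47, Dnmt1 at 0.26 ± 0.42, Kdm1b at 0.15 ± 0.47, Dnmt3b at 0.04 ± 0.67 and Uhrf1 at −0.04 ± 0.47. These 5 were between 1.03 and 1.40 above the median of all genes on the log2 scale. Trim28, at −0.29 ± 0.49, Dppa3, at −0.57 ± 0.37, and Dnmt3a, at −0.62 ± 0.50, were less far above it. Dnmt3l was at −0.90 ± 0.49 and thus 0.16 above the median. With TMM scaling, under which the median of all genes was −0.22, Tet3 reached 1.15 and Dnmt1 1.06 and both were called higher (adjusted p = 0.00419 and 0.0145), as 1329 of 18816 genes were, while over 9 alternatives their adjusted p reached 0.958 and 0.997. With the same scaling Dnmt3a, Uhrf1, Dppa3 and Trim28 turned positive, and with median-of-ratios scaling Dnmt3l did too, at 0.06. In KO, TMM scaling turned 5 members positive, Dnmt3a at 0.4, Uhrf1 at 0.72, Dppa3 at 0.79, Trim28 at 0.82 and Kdm1b at 0.99. Without WT MII replicate 1, Dnmt3l and Zfp57 were called lower in WT, at −1.31 and −1.58, as 26.1% of all genes were called. Tet3, Dnmt1, Kdm1b and Dnmt3b were positive and Zfp57 was negative with ERCC and with TMM scaling.

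ERCC-scaled counts of MII lay below those of GV without overlap for 4 members in WT, namely Dnmt3a, Dnmt3l, Dppa3 and Zfp57, and for 2 in KO, Dppa3 and Zfp57. The same held for 58% of genes tested in WT and 61.4% in KO. In KO Dnmt3l went the other way, with both MII libraries above both GV libraries, which was seen for 3.59% of genes, and in WT, where no member did so without overlap, for 3.54%. The KO MII libraries were unlike each other for several members. Replicate 1 exceeded replicate 2 by 2.15 on the log2 scale for Dnmt3a, 1.82 for Uhrf1 and 1.70 for Dnmt1, with 1.15 for the median of all genes. For Dppa3 the ratio was 0.07. Without KO MII replicate 1, Dnmt3a, Uhrf1, Zfp57 and Trim28 were called lower in KO, at −1.95, −1.38, −2.24 and −1.13. In that fit 54.2% of all genes tested were called, and the lone MII library was assumed to vary like the GV pair.

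Whether the change from GV to MII differed between genotypes was tested as an interaction. Dnmt3l changed by 1.52 ± 0.65 more in KO than in WT on the log2 scale, with an unadjusted p of 0.039 and an adjusted p of 0.804. For the other 9 members the difference lay between −0.24 and 0.14. edgeR called 0% of 20807 genes in this test, 1 member had an unadjusted p under 0.05, as 5.75% of all genes did, and DESeq2 called 0 members and 154 genes (0.74%).

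**Figure D4:**
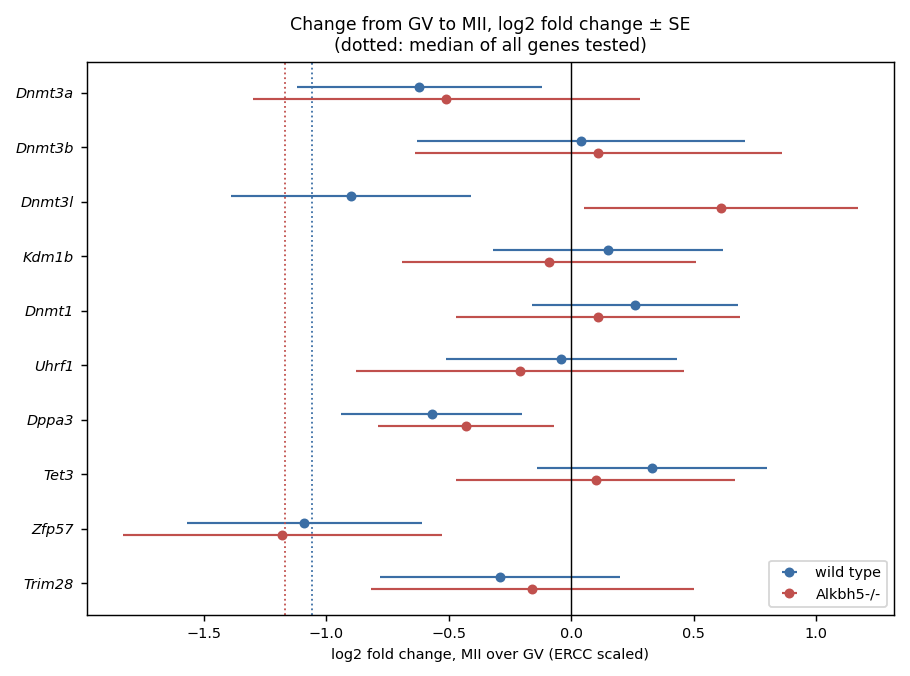
Log2 fold change of MII over GV (horizontal axis, ± SE) in WT (blue) and KO (red), from ERCC-scaled fits. Dotted lines at −1.06 and −1.17 are the medians of all genes tested; all members except Zfp57 lie to their right, and Dnmt3l is the member with the largest gap between genotypes.

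At the earlier step, from GV to GVBD, little had moved. No member was called in WT or KO by edgeR, where 0.0511% (0.0409% higher, 0.0102% lower) and 0.22% (0.0367% higher, 0.184% lower) of all genes tested were called, no member had an unadjusted p under 0.05, and DESeq2 called none. Of all genes, 6.25% in WT and 7.65% in KO had such a p, and DESeq2 called 1.96 and 1.22%. In WT both GVBD libraries lay below both GV libraries for Uhrf1 and Zfp57, as for 19.3% of genes, and for no member above, against 11.3%. In KO they lay below for Dnmt1 and Dppa3, as for 28.1% of genes, and above for Tet3 and Trim28, as for 12.5%. Uhrf1 had the lowest log2 fold change in WT, −0.80 ± 0.39 (adjusted p = 0.915), and Dnmt3l the highest in KO, 0.60 ± 0.49 (adjusted p = 0.802). Without KO GVBD replicate 1, Zfp57 was called lower in KO (−1.81, adjusted p = 0.00429), and without KO GVBD replicate 2, Dnmt3l was called higher (1.21, adjusted p = 0.00347), in fits that called 1.47 and 4.31% of all genes. The comparisons with GV share the GV libraries, and those between genotypes share their libraries with them.

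Other genes of these pathways were taken from 6 lists with 88 genes in all. In KO against WT, edgeR called 0 of 82 tested at GV, 2 of 81 at GVBD, 0 of 76 at MII and 0 of 84 over all stages. It called 0.0977, 2.54, 0.803 and 1.26% of all genes tested in these comparisons. At an unadjusted p under 0.05 there were 20, 9, 5 and 13 genes, where 17.9, 14.9, 7.32 and 18.8% of all genes had such a p. DESeq2 called 3, 2, 0 and 4, where it called 3.42, 4.63, 1.97 and 6.16% of all genes. Both genes called at GVBD were low and were lower in KO. H19, a maternally expressed imprinted transcript, had 163 and 60 counts in WT GVBD and 0 in both KO GVBD libraries, so that it was at least 33-fold lower, against a floor of 3 counts per library. It had 0 to 24 counts in the other libraries, and the WT GVBD libraries that held it were also the only ones with counts of Krt14, a skin keratin. Zbtb4, a binder of methylated DNA, had 19 and 51 counts in WT GVBD and 0 in both KO GVBD libraries, and was at least 8.58-fold lower. At GV it had 0 and 29 counts in WT and 51 and 24 in KO, and at MII 6 and 16 in WT and 10 and 0 in KO. A count of 0 thus also occurred in a WT library.

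From GV to MII in WT, 14 of 77 tested genes on these lists were called by edgeR, all lower, where 30.5% of all genes were called lower. DESeq2 called 13 lower and 1 higher, where it called 29.3% of all genes in either direction. The gene called higher was Mest, an imprinted gene chosen here after its values were seen, at 1.07 ± 0.48 by edgeR (adjusted p = 0.0735). In KO 1 of 81 was called lower, where 3.28% of all genes were, and DESeq2 called 12, where it called 16.3% of all genes. Among 14 other methylation writers, cofactors and methyl-DNA binders, 3 were called lower in WT, among them Zbtb38 and Mbd3, with log2 fold changes of −2.65 ± 0.79 and −2.29 ± 0.87. The list's median was −0.88. Of 8 tested genes of TET and base excision demethylation 1 was called lower, Apex1, which cuts abasic sites, at −1.58 ± 0.54, and the median was −0.09. None of 15 tested partners of imprint protection was called by edgeR or DESeq2, and the median of this list was −0.37. On it 2 had an unadjusted p under 0.05, where 39.1% of all genes did.

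Among 13 histone modifiers linked to de novo methylation, 2 were called lower in WT. Kdm5a, a demethylase of histone H3, was at −3.42 ± 0.59, and Dcaf13, which the oocyte needs to remove repressive histone methylation, at −2.48 ± 0.48. Raw Kdm5a counts were 391 and 838 in WT GV against 36 and 255 in WT MII, so its WT MII libraries were far apart. Raw Dcaf13 counts were 21015 and 17323 in WT GV against 6905 and 6932 in WT MII. Dcaf13 was also the gene called in KO, at −3.32 ± 0.59 (adjusted p = 0.0347). Of 10 genes of methyl donor supply 3 were called lower in WT, among them Ahcy, which removes the product of methylation reactions, at −3.64 ± 0.76, and Mthfd1 at −1.91 ± 0.55. This list had a median of −1.38, below that of all genes. Of 17 tested imprinted genes 5 were called lower, with a median of −1.17 over the list. Mcts2 was at −4.09 ± 1.36 and Zrsr1 at −3.80 ± 1.07, and both rest on few counts. Raw counts of Mcts2 were 39 and 23 in WT GV and 6 and 0 in WT MII. Those of Zrsr1 were 26 and 85 in WT GV and 10 and 6 in WT MII. Plagl1 was at −3.39 ± 0.51, Meg3 at −2.94 ± 0.64 and Gnas at −1.21 ± 0.49. The histone modifiers had a median of −0.42. The 10 members had a median of −0.16 and none called, and several of the lists were like them. Above the median of all genes lay 9 of 10 members, 7 of 8 demethylation genes, 14 of 15 imprint partners and 11 of 13 histone modifiers. The same held for 8 of 14 other methylation genes, 4 of 10 methyl donor genes and 8 of 17 imprinted genes.

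From GV to GVBD edgeR called 0 of 80 tested genes on these lists in either genotype, where 0.0511% of all genes were called in WT and 0.22% in KO. At an unadjusted p under 0.05 there were 5 in WT and 7 in KO, and DESeq2 called 0 in WT and 1 in KO. Of all genes, 6.25% in WT and 7.65% in KO had such a p, and DESeq2 called 1.96 and 1.22%. In the interaction 0 of 84 were called by edgeR, 3 had an unadjusted p under 0.05 and DESeq2 called 1. The shares over all genes were 0, 5.75 and 0.74%.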

How the data were processed

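Per the file headers and values, the authors deposited 1 table of raw, unnormalized read counts for 56691 genes and 92 ERCC sequences. No column was left without a sample (0 such columns). According to the study's methods, pools of oocytes were lysed, polyadenylated RNA was reverse transcribed with template switching, and cDNA was amplified by PCR without molecular identifiers, so that counts are not independent molecules. The extraction protocol of the labels describes another, bulk preparation. Reads were trimmed with cutadapt, aligned with HISAT2 to GRCm38 joined to the ERCC sequences and, if unique, passed to StringTie. The submitters' processing notes give versions 1.9, 2.0.4 and 1.3.4d of these tools. The use of strand, the annotation release and the step that made whole counts are not given in the sources used here.

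Symbols came from a table of gene identifiers that named 52073 genes (91.9%). Positions, exon lengths and 3′ ends are those of GENCODE M21 on GRCm38. For the 3′ ends, a principal transcript with a 3′ UTR was used, or otherwise the one with the longest. Counts were fitted with edgeR 4.0.16 (glmQLFit, glmQLFTest; R 4.3.3) on the groups compared, with library sizes in proportion to ERCC totals and genes kept by filterByExpr. P-values were two-sided and adjusted over all genes tested by Benjamini-Hochberg. Genes with adjusted p under 0.05 and at least 2-fold change were called. Standard errors came from the log2 fold change and F. There were 9 comparisons, namely KO against WT at each stage and across stages with a stage term, GVBD and MII against GV in each genotype, and the interaction of genotype with the GV to MII change. Every pair of replicates differed by more than sampling noise (chi-square per degree of freedom from 38.1 to 263). Replicate ratios used a pseudocount of 0.5. Scripts were tested on simulated data.

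The members, the lists and the tests were chosen with earlier results of these data known. The genes named are all 10 members, and from each other list those called between genotypes or in the interaction and up to 3 with the lowest and 3 with the highest change among those called from GV to MII in WT, except for some that are not reported here. The tested alternatives were TMM and median-of-ratios scaling, DESeq2 1.42.0, no filter, blocking on replicate number and omitting each library in turn. The authors compared groups with DESeq2.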

Additional observations from a re-analysis of the deposited data

Results flagged for a closer look

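From GV to MII, the ERCC-scaled counts of Dnmt3l moved in opposite ways in the 2 genotypes. Both WT MII libraries (1886 and 1139 ERCC-scaled counts) lay below both WT GV libraries (2910 and 2753), and both KO MII libraries (8791 and 5698) lay above both KO GV libraries (4015 and 5449). The change of the group means was 1.52 larger in KO on the log2 scale. The size of the fall in WT depends on the scaling. In CPM, WT libraries had 68.7 and 68.9 at GV and 63.7 and 60 at MII, and KO libraries 77.8 and 121.2 at GV and 247.6 and 258 at MII. By ERCC scaling the WT change lay 0.16 above the median of all genes on the log2 scale. What drew attention is the opposite movement of every library, which is not itself a test. The interaction term that tests the difference had an adjusted p of 0.804 by edgeR.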

How the results depend on the processing

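Results were recomputed with scaling by TMM or median of ratios, with the DESeq2 Wald test, unfiltered, with a replicate block and without each library, with crossed replicate numbers added after seeing the data. Where these turned a direction the cause was not tested, except that the scalings to endogenous counts set the median gene near 0 by construction. The 10 members' medians moved with it, for MII against GV from −0.16 to 0.66 in WT and from −0.13 to 0.9 in KO with TMM scaling. As reported, genes called numbered 19 for KO against WT at GV, 494 for KO against WT at GVBD, 141 for KO against WT at MII, 10 for GVBD against GV in WT and 42 for GVBD against GV in KO. They numbered 5821 for MII against GV in WT, 616 for MII against GV in KO, 0 for the interaction of genotype with MII against GV and 278 for KO against WT over all stages. With TMM scaling, genes called numbered 32 for KO against WT at GVBD, 43 for KO against WT at MII, 3 for GVBD against GV in WT and 18 for GVBD against GV in KO. They numbered 69 for the interaction of genotype with MII against GV and 599 for KO against WT over all stages. With median-of-ratios scaling, genes called numbered 37 for KO against WT at GVBD, 2 for KO against WT at MII, 3 for GVBD against GV in WT and 18 for GVBD against GV in KO. They numbered 930 for MII against GV in KO, 110 for the interaction of genotype with MII against GV and 608 for KO against WT over all stages. With the DESeq2 Wald test, genes called numbered 666 for KO against WT at GV, 901 for KO against WT at GVBD, 346 for KO against WT at MII and 383 for GVBD against GV in WT. They numbered 232 for GVBD against GV in KO, 3068 for MII against GV in KO, 154 for the interaction of genotype with MII against GV and 1356 for KO against WT over all stages. With no filter on low counts, genes called numbered 666 for KO against WT at GV, 953 for KO against WT at GVBD, 528 for GVBD against GV in WT and 516 for GVBD against GV in KO. They numbered 2659 for MII against GV in KO, 346 for the interaction of genotype with MII against GV and 1181 for KO against WT over all stages. With a replicate block, genes called numbered 0 for KO against WT at GV, 214 for KO against WT at GVBD, 4 for KO against WT at MII and 182 for GVBD against GV in WT. They numbered 16 for GVBD against GV in KO, 2462 for MII against GV in KO and 519 for KO against WT over all stages. With crossed replicate numbers they numbered 218 for KO against WT at GV and 0 for KO against WT at MII, with 0 members called. All other counts were within 1.5 times of those reported. With ERCC scaling the split of called genes into higher and lower was 11 and 8 for KO against WT at GV, 157 and 337 at GVBD, 88 and 53 at MII and 198 and 80 over all stages. With TMM scaling it was 8 and 11, 4 and 28, 23 and 20, and 251 and 348. For MII against GV it was 74 and 5747 in WT and 1 and 615 in KO with ERCC scaling, and 1329 and 3193 in WT and 217 and 689 in KO with TMM scaling. For GVBD against GV in WT it was 8 and 2 with ERCC and 3 and 0 with TMM scaling, and in KO 7 and 35 with ERCC and 5 and 13 with TMM scaling.

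Members called, 0 in every comparison as reported, changed as follows. TMM scaling called 2 for MII against GV in WT, where it called 4522 of 18816 genes. Median-of-ratios scaling called 3 for MII against GV in WT, where it called 4825 of 18816 genes. The DESeq2 Wald test called 1 for KO against WT at GVBD and 1 at MII. It called 1 for MII against GV in WT and 3 for KO against WT over all stages. Of all genes it called 4.63, 1.97, 29.3 and 6.16% in these comparisons. The fit with no filter called 2 for KO against WT over all stages, where it called 1181 of 33089 genes. The replicate block called 1 for MII against GV in WT, where it called 4973 of 18816 genes. It also called 1 for KO against WT over all stages, where it called 519 of 22004 genes. In the DESeq2 fit these were Trim28 at GVBD, Dnmt3l at MII, Zfp57 for MII against GV in WT, and Dnmt3b, Dnmt3l and Trim28 over all stages. With no filter they were Dnmt3l (adjusted p = 0.000222) and Trim28 (adjusted p = 0.0179). Median-of-ratios scaling called Dnmt1 (1.18), Tet3 (1.29) and Kdm1b (1.09) higher at MII in WT. With the block, Zfp57 (−1.15, adjusted p = 0.0428) and Dnmt3b (1.08, adjusted p = 0.0467) passed, for MII against GV in WT and for KO against WT over all stages. The replicate numbers were not shown to pair libraries: deviations of same-numbered libraries correlated between −0.22 and 0.06 over 13273 genes.

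Single members changed sign as follows, in log2 fold change. With TMM scaling, KO against WT at GV gave −0.23 for Dnmt3a, −0.11 for Zfp57 and −0.16 for Kdm1b. With TMM scaling, KO against WT at GVBD gave −0.21 for Uhrf1. With TMM scaling, KO against WT at MII gave −0.25 for Dnmt3a, −0.07 for Dppa3, −0.04 for Tet3 and −0.25 for Zfp57. With TMM scaling, GVBD against GV in WT gave 0 for Dnmt3a and 0.12 for Dnmt3l. With TMM scaling, GVBD against GV in KO gave 0.05 for Zfp57. With TMM scaling, MII against GV in WT gave 0.23 for Dnmt3a, 0.78 for Uhrf1, 0.29 for Dppa3 and 0.54 for Trim28. With TMM scaling, MII against GV in KO gave 0.4 for Dnmt3a, 0.72 for Uhrf1, 0.79 for Dppa3, 0.82 for Trim28 and 0.99 for Kdm1b. With TMM scaling, the interaction of genotype with MII against GV gave −0.03 for Dnmt3a. With TMM scaling, KO against WT over all stages gave −0.06 for Dnmt3a, −0.06 for Zfp57 and −0.03 for Kdm1b. With median-of-ratios scaling, KO against WT at GV gave −0.25 for Dnmt3a, −0.13 for Zfp57 and −0.18 for Kdm1b. With median-of-ratios scaling, KO against WT at GVBD gave −0.2 for Uhrf1. With median-of-ratios scaling, KO against WT at MII gave −0.27 for Dnmt3a, −0.07 for Dppa3, −0.05 for Tet3 and −0.26 for Zfp57. With median-of-ratios scaling, GVBD against GV in WT gave 0 for Dnmt3a and 0.11 for Dnmt3l. With median-of-ratios scaling, GVBD against GV in KO gave 0.05 for Zfp57. With median-of-ratios scaling, MII against GV in WT gave 0.38 for Dnmt3a, 0.06 for Dnmt3l, 0.92 for Uhrf1, 0.42 for Dppa3 and 0.67 for Trim28. With median-of-ratios scaling, MII against GV in KO gave 0.4 for Dnmt3a, 0.73 for Uhrf1, 0.82 for Dppa3, 0.82 for Trim28 and 1 for Kdm1b. With median-of-ratios scaling, KO against WT over all stages gave −0.09 for Dnmt3a, −0.08 for Zfp57 and −0.06 for Kdm1b. With the replicate block, KO against WT at MII gave −0.1 for Dnmt3a and −0.03 for Zfp57. With the replicate block, GVBD against GV in WT gave −0.11 for Dnmt3a. With the replicate block, MII against GV in WT gave −0.02 for Dnmt3b. With the replicate block, MII against GV in KO gave −0.12 for Dnmt1. With crossed numbers, KO against WT at MII gave −0.11 for Dnmt3a and −0.03 for Zfp57.

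Leaving out 1 library moved the number of genes called. For KO against WT at GV it ranged from 0 (without KO GV replicate 1) to 514 (without WT GV replicate 2). For KO against WT at GVBD it ranged from 5 (without WT GVBD replicate 1) to 813 (without KO GVBD replicate 2). For KO against WT at MII it ranged from 11 (without WT MII replicate 1) to 542 (without KO MII replicate 2). For GVBD against GV in WT it ranged from 0 (without WT GVBD replicate 1) to 629 (without WT GV replicate 2). For GVBD against GV in KO it ranged from 7 (without KO GV replicate 1) to 888 (without KO GVBD replicate 2). For MII against GV in WT it ranged from 2853 (without WT GV replicate 2) to 5347 (without WT MII replicate 1). For MII against GV in KO it ranged from 39 (without KO GV replicate 1) to 11075 (without KO MII replicate 1). For the interaction of genotype with MII against GV it ranged from 0 (without WT MII replicate 1) to 285 (without KO MII replicate 2). For KO against WT over all stages it ranged from 63 (without KO GVBD replicate 1) to 918 (without KO MII replicate 2). Members called ranged from 0 to 1 for GVBD against GV in KO, 0 to 2 for MII against GV in WT, 0 to 4 for MII against GV in KO and 0 to 2 for KO against WT over all stages.

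The log2 fold change of single members whose sign changed had the following ranges without 1 library. In KO against WT at GV it was −0.28 to 0.1 for Dnmt1, −0.24 to 0.4 for Dnmt3a, −0.17 to 0.06 for Dppa3 and −0.08 to 0.4 for Kdm1b. In KO against WT at GVBD it was −0.4 to 0.42 for Dnmt1, −0.18 to 1.25 for Dnmt3a, −0.07 to 0.37 for Uhrf1, −0.71 to 0.42 for Dppa3 and −1.24 to 1.35 for Zfp57. In KO against WT at MII it was −1.34 to 0.38 for Dnmt1, −1.21 to 0.94 for Dnmt3a, −1.79 to 0.03 for Uhrf1, −0.15 to 0.37 for Dppa3 and −0.32 to 0.72 for Tet3. It was −0.92 to 0.74 for Zfp57, −0.06 to 1.47 for Trim28 and −0.66 to 0.47 for Kdm1b. In GVBD against GV in WT it was −0.85 to 0.58 for Dnmt3a, −0.55 to 0.39 for Dnmt3b, −0.17 to 0.14 for Dnmt3l, −0.87 to 0.26 for Dppa3 and −0.75 to 0.44 for Tet3. It was −1.15 to 0.03 for Trim28 and −0.14 to 0.17 for Kdm1b. In GVBD against GV in KO it was −0.01 to 0.63 for Dnmt3a, −0.49 to 1.21 for Dnmt3l and −1.81 to 0.78 for Zfp57. In MII against GV in WT it was −0.38 to 0.7 for Dnmt1, −0.44 to 0.4 for Dnmt3b, −0.58 to 0.36 for Uhrf1, −0.16 to 0.7 for Tet3 and −0.71 to 0.03 for Trim28. It was −0.38 to 0.54 for Kdm1b. In MII against GV in KO it was −0.97 to 0.72 for Dnmt1, −1.95 to 0.2 for Dnmt3a, −0.26 to 0.4 for Dnmt3b, −1.38 to 0.43 for Uhrf1 and −0.44 to 0.5 for Tet3. It was −1.13 to 0.41 for Trim28 and −0.68 to 0.33 for Kdm1b. In the interaction of genotype with MII against GV it was −1.24 to 0.49 for Dnmt1, −1.33 to 0.83 for Dnmt3a, −0.29 to 0.55 for Dnmt3b, −1.35 to 0.47 for Uhrf1 and −0.1 to 0.42 for Dppa3. It was −0.78 to 0.26 for Tet3, −1.15 to 0.51 for Zfp57, −0.83 to 0.7 for Trim28 and −0.83 to 0.3 for Kdm1b. In KO against WT over all stages it was −0.36 to 0.04 for Dnmt1, −0.08 to 0.42 for Dnmt3a, −0.17 to 0.12 for Dppa3 and −0.13 to 0.49 for Zfp57.

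Dnmt3b, at 86 to 294 counts per library, was the member with the least depth, and all others had at least 430 counts in every library. With 2 libraries per group the spread between libraries set the error of the comparisons, and it was widest in KO MII.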
